A study of Mus musculus with 24 samples.

Results

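The genes of branched-chain amino acid catabolism were followed in mouse adipose tissue across 24 total RNA-seq libraries. They were taken by symbol from a fixed membership of 31 genes that covers transport, transamination, the branched-chain keto acid dehydrogenase complex with its kinase and phosphatase, and the arms that break down the carbon skeletons of leucine, isoleucine and valine. All 31 symbols were among the 24421 gene symbols counted, and all 31 passed the filter on low counts in every comparison. The mice were 2 months old, of the C57BL/6 strain, and either wild type (WT) or carriers of a substitution of the tyrosine Y665 of STAT5B, a transcription factor that relays growth hormone and cytokine signals. Y665F puts phenylalanine at that position and Y665H puts histidine there. Each genotype was sampled in females and in males with 4 libraries a group, which gave 6 groups: WT, Y665F and Y665H females, and WT, Y665F and Y665H males. The labels name neither the fat depot nor the zygosity, and do not say whether the 4 libraries of a group came from separate mice, so p-values measure the spread between libraries, which may be technical. The comparisons ask how the substitutions differ from WT and from each other in this tissue, and whether the sexes respond alike.

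Leucine, isoleucine and valine enter cells through transporters of the plasma membrane and enter mitochondria through a dedicated carrier. They are transaminated to keto acids, which the branched-chain keto acid dehydrogenase (BCKDH) complex commits to oxidation, and this step is shut off by phosphorylation and turned on by dephosphorylation. Leucine ends as acetyl-CoA and acetoacetate, valine as propionyl-CoA, and isoleucine as both acetyl-CoA and propionyl-CoA, which a biotin enzyme and a vitamin B12 enzyme pass on to succinyl-CoA. White adipocytes induce this pathway as they differentiate and use its acetyl-CoA for lipid, and brown adipocytes burn branched-chain amino acids during thermogenesis.

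The depth was 21.0 to 41.3 M gene counts a library (M for mega), and every level in the text is in CPM, a gene's count divided by that total in M. Adipocyte marker genes were abundant throughout: Adipoq, the adiponectin gene, lay between 508 and 2370 CPM. Several libraries carried RNA of other tissues. The mean log2(CPM + 1) of 15 skeletal muscle markers was 4.80, 1.68, 1.87 and 5.54 in WT females 1 to 4, 1.02 to 1.91 in Y665F females and 1.28, 3.17, 6.42 and 4.71 in Y665H females 1 to 4. The mean of 8 epididymis markers was 0.14, 10.41, 7.95 and 5.49 in WT males 1 to 4, 0.00 to 4.04 in the mutant males and at most 0.09 in females, where Defb20 had no count. WT male 2 had the lowest mean of the 12 adipocyte markers, 9.85, against 10.46 to 11.46 elsewhere. The mean of 10 thermogenic adipocyte markers was 3.48 to 4.16 in WT, 2.28 to 2.84 in Y665F and 3.45 to 5.01 in Y665H females, and 2.05 to 2.99 in males. In bulk tissue, fewer cells of a type and less RNA per cell cannot be told apart.

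Levels were compared between genes only after division by exon length. As CPM per kilobase of exon, Oxct1, the enzyme that activates acetoacetate for oxidation, was the highest member in WT females at 110 ± 11.6 (SD, n = 4). Aldh6a1, the last dehydrogenase of the valine arm, followed at 94.5 ± 10.4 and Pccb, the beta subunit of propionyl-CoA carboxylase, at 86.2 ± 9.89, so that the spreads of these neighbours overlapped. The mitochondrial transaminase gene Bcat2 had a mean of 57.8 over the 24 libraries on this scale and its cytosolic counterpart Bcat1 a mean of 0.782, the lowest of the members. Of the BCKDH subunits, the E3 gene Dld and the E1 alpha gene Bckdha stood at 80.0 ± 17.1 and 78.2 ± 4.44, the E1 beta gene Bckdhb at 27.4 ± 1.10 and the E2 gene Dbt at 17.8 ± 2.87. The kinase gene Bckdk was at 17.1 ± 1.76 and the phosphatase gene Ppm1k at 3.79 ± 0.555. These lengths come from the GENCODE annotation of mm10, which may differ from the annotation used for counting.

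**Figure D1:**
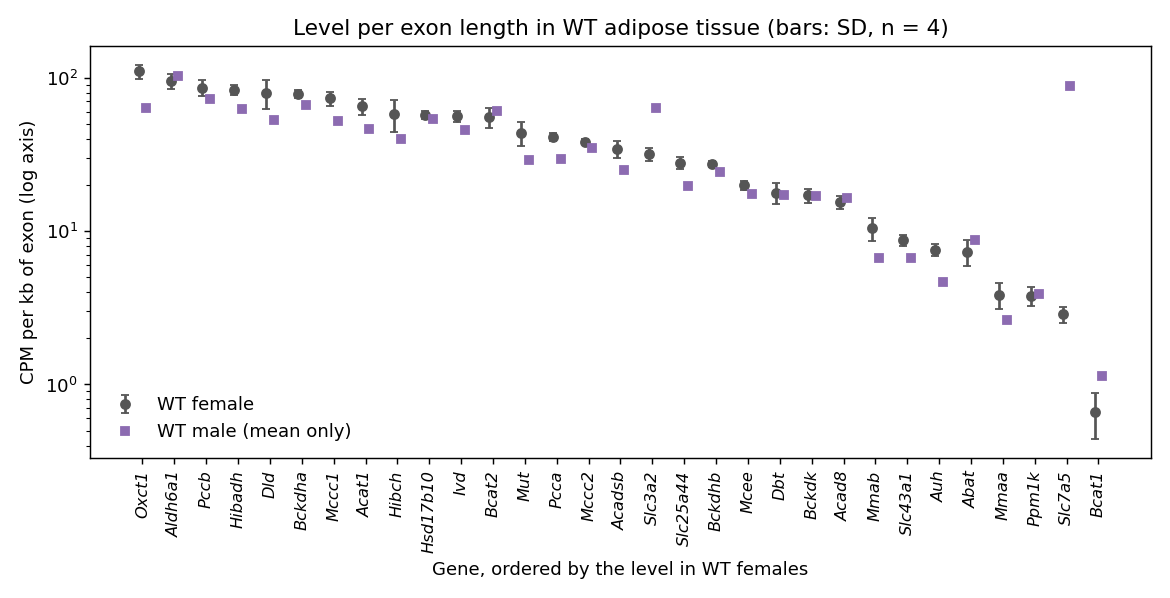
Level of each member as CPM per kilobase of exon, on a log axis, in WT females (mean with SD, n = 4) and WT males (mean alone). Oxct1 is the highest and Bcat1 the lowest in females, and Slc7a5 is the member whose male mean lies farthest above its female mean, a mean that WT male 2 raised.

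Across genotypes the members formed a common pattern in females. The group means ran Y665F below WT below Y665H for 23 of the 31 members, against 11.1% of the 13955 genes that averaged 1 CPM or more over the female groups. Y665H had the highest mean for 27 members, against 22.3% of all those genes. These means are of CPM, scaled by library totals alone, which bears on the shares over all genes. In males the same order held for 15 of 31 members, against 14.3% of 15121 genes. The mean log2(CPM + 1) over the 31 members was 5.92 to 6.26 in Y665F, 6.18 to 6.36 in WT and 6.48 to 6.63 in Y665H females. All 4 Y665H female libraries thus lay above the 8 other female libraries on this measure. Male means were 5.89 to 6.09 in Y665F, 5.90 to 6.23 in WT and 6.25 to 6.34 in Y665H.

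**Figure D2:**
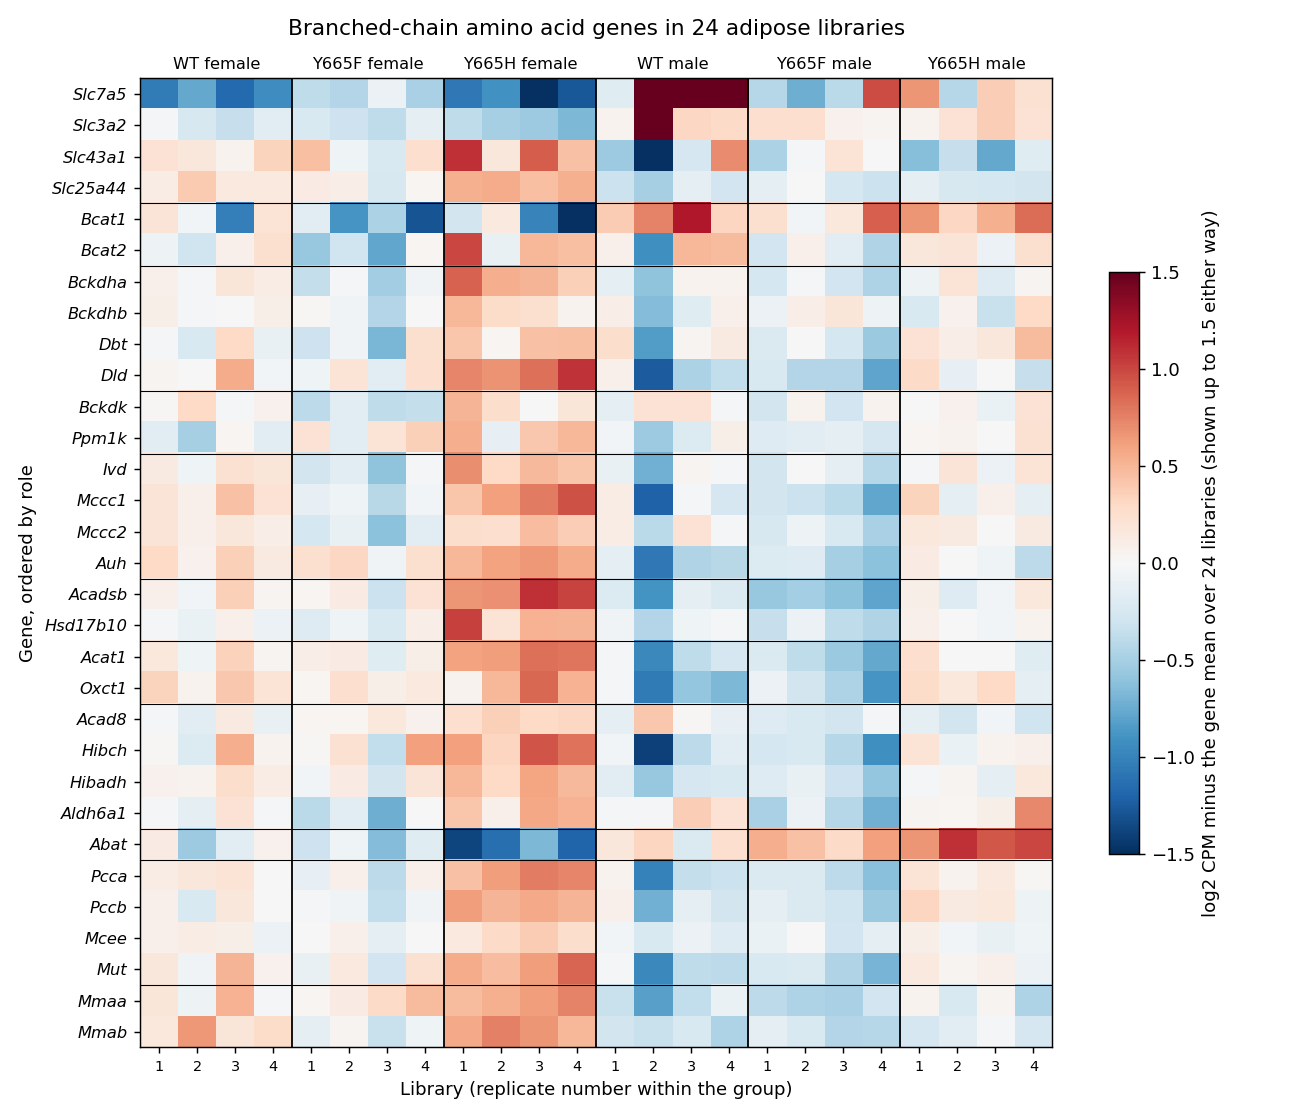
log2 CPM of each member minus its mean over the 24 libraries, with members in rows by role and libraries in columns by group; colours stop at 1.5 either way. The 4 Y665H female columns are higher than the other female columns for most rows, with Abat, Slc7a5, Slc3a2 and Bcat1 among the exceptions. WT male 2 stands apart from the other WT males.

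Most of the pathway was higher in Y665H than in Y665F females. With edgeR's quasi-likelihood test and Benjamini-Hochberg adjustment over all genes, at an adjusted p under 0.05, 25 of the 31 members were called, against 17.4% of all tested genes. Of these, 23 were higher in Y665H, where 8.77% of all genes were, and 2 were lower, where 8.59% were. The median log2 fold change of the members was 0.72, against -0.03 over all tested genes, and 28 of 31 values were above 0. The CPM of the groups did not overlap for 21 members that were higher, against 6.62% of all genes, and for 3 that were lower, against 21.5%. CPM are scaled by library totals alone, and fold changes on that scale had an all-gene median of -0.18. The edgeR calls use another scaling, named below. The 8 fits that left out 1 library called 18 to 24 members, and the same 18 of the 25 kept their call in every fit. These fits called 1554 to 2839 genes in all, against 2689 of 15493 in the main fit.

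Other tissue signals also differed between these groups, where 8.77% of all tested genes were higher in Y665H and 8.59% lower. Of the 10 thermogenic markers 7 were higher in Y665H females (median log2 fold change 2.49), Ucp1 among them at 0.312 to 88.1 CPM against 0.136 to 0.858 CPM, and of 15 muscle markers 11 were higher (median 4.95). Of the 12 adipocyte markers 1 was called, higher in Y665H, with a median of 0.47. In the opposite direction, 7 of 8 B cell, 5 of 9 tested T and NK cell and 7 of 10 macrophage markers were lower in Y665H. With the adipocyte, muscle or thermogenic list mean as a covariate, the members' median was 0.52, 0.79 or 0.84. The adipocyte covariate left 20 members called, against 13.4% of all tested genes, the muscle covariate 16, against 10.4%, and the thermogenic covariate 3, against 0.536%. Thermogenic list means did not overlap between these groups (2.28 to 2.84 in Y665F, 3.45 to 5.01 in Y665H). That fit therefore cannot separate the thermogenic signal from genotype. Without the 5 muscle-rich female libraries, of which 3 are Y665H, the median was 0.79 and no member or other gene was called by edgeR. That fit had 1 Y665H library against 4 of Y665F. Scaling by library totals in place of the trimmed mean of M values (TMM) moved the all-gene median here to -0.18. It moved that median to 0.15 from 0.02 in Y665F against WT females and to 0.22 from 0.04 in WT males against females, and fold changes are relative to TMM. Under it 19 members were higher and 2 lower in Y665H than in Y665F females.

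**Figure D3:**
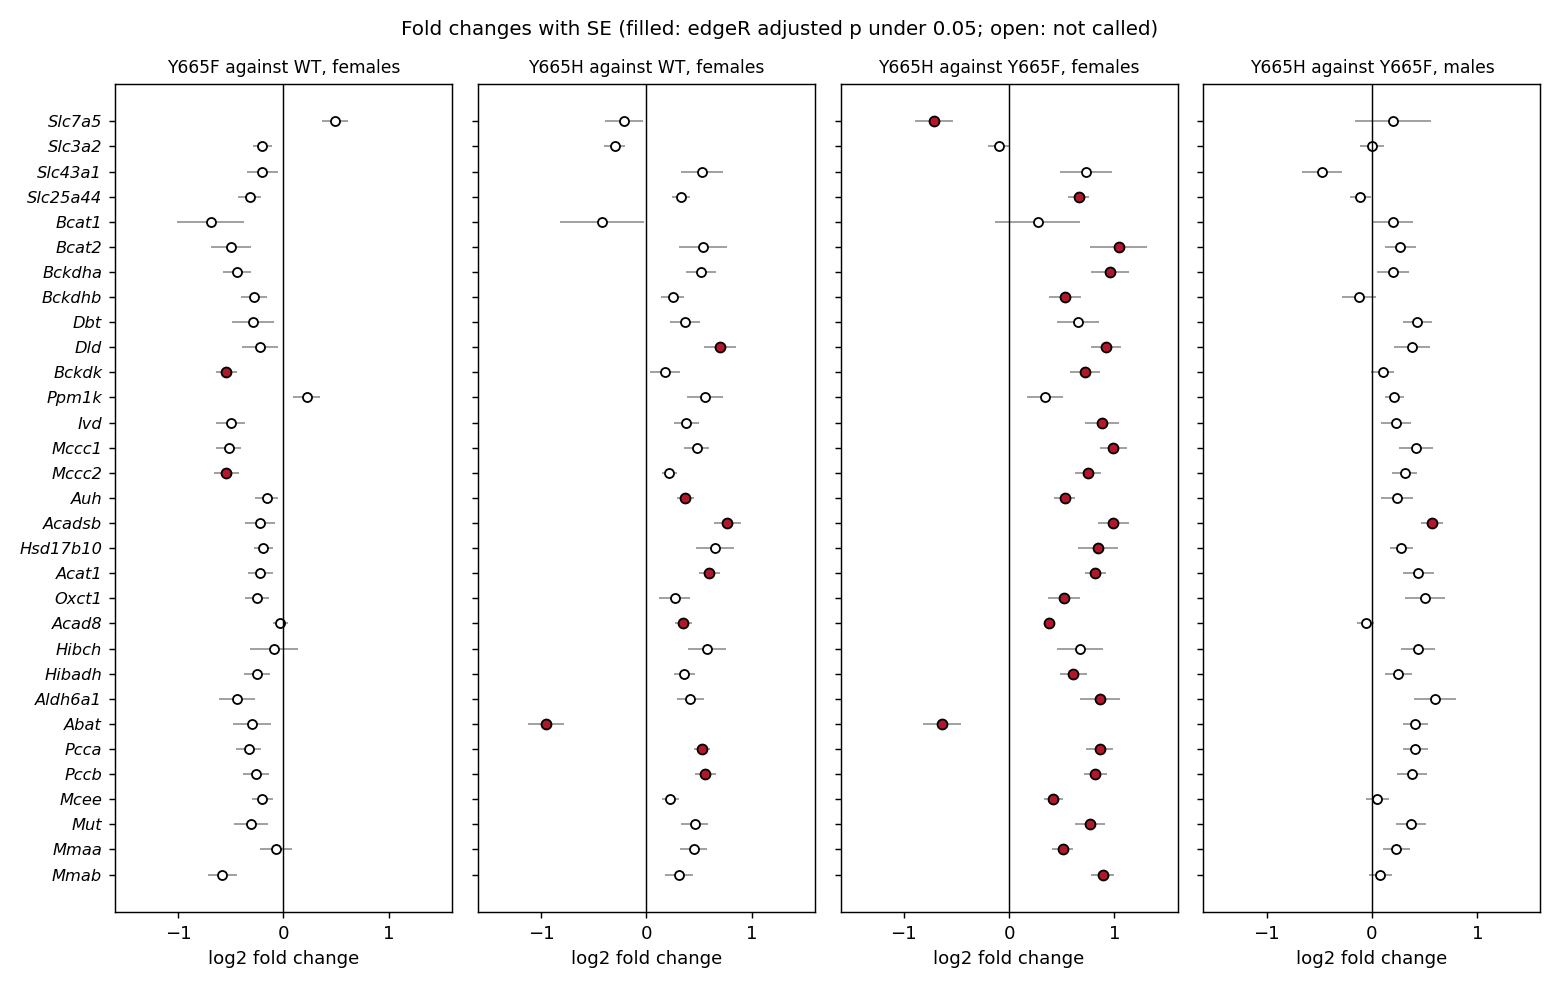
log2 fold change with SE of every member in 4 comparisons; filled points were called at an adjusted p under 0.05 by edgeR. Points lie right of 0 for 28 members in Y665H against Y665F females and for 27 in Y665H against WT females and in Y665H against Y665F males, and left of 0 for 29 in Y665F against WT females.

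Transporters did not move as a block between the mutant females. Slc25a44, the mitochondrial carrier of branched-chain amino acids, was at 94.7, 92.9, 73.6 and 88.5 CPM in Y665F, 93.7, 114, 95.8 and 96.4 CPM in WT and 126, 128, 119 and 126 CPM in Y665H females, each list giving libraries 1 to 4 in order. Every Y665H female lay above every other female, with a log2 fold change of 0.66 ± 0.10 SE (adjusted p 0.00509, edgeR) against Y665F. In males it was at 78.5, 87.5, 72.5 and 69.6 CPM in Y665F, 69.4, 61.3, 79.3 and 70.9 CPM in WT and 78.4, 73.3, 72.5 and 71.7 CPM in Y665H males, groups that overlapped.

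Slc7a5 went the other way in females. It encodes the catalytic subunit of the LAT1 exchanger for large neutral amino acids and was at 15.1, 14.5, 18.6 and 14.1 CPM in Y665F, 9.55, 11.6, 8.76 and 10.3 CPM in WT and 9.4, 10.5, 6.19 and 8.15 CPM in Y665H females. Y665F libraries lay above all WT and Y665H females, and the log2 fold change of Y665H against Y665F was -0.71 ± 0.18 SE (adjusted p 0.0273, edgeR). The male levels were 14.6, 11.9, 14.9 and 38.8 CPM in Y665F, 17.4, 1040, 105 and 81.7 CPM in WT and 31.1, 14.6, 25.4 and 23 CPM in Y665H males. WT males 2, 3 and 4, the libraries with the highest epididymis marker means, were higher than every other library of either sex. Slc3a2, the heavy chain that partners Slc7a5, was at 68.5 to 84.3 CPM in Y665H, 84.4 to 98.7 CPM in Y665F and 86 to 107 CPM in WT females. Y665H was thus lowest without overlap, as 21.5% of all genes were against Y665F. The TMM-scaled log2 fold change against Y665F was -0.10 ± 0.10 SE (adjusted p 0.506, edgeR). Slc3a2 reached 387 CPM in WT male 2. Slc43a1, another facilitator of large neutral amino acids, was at 23.4 to 37.6 CPM in Y665F and 30.9 to 58.9 CPM in Y665H females (log2 fold change 0.73 ± 0.25 SE, adjusted p 0.0772, edgeR).

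Of the transaminases, Bcat2 was called and Bcat1 was not. Bcat2, at chr7:45570153-45589711 of mm10, had 92.5, 112, 80 and 141 CPM in Y665F, 131, 112, 145 and 162 CPM in WT and 276, 127, 194 and 189 CPM in Y665H females. Y665H female 1 was the highest and Y665H female 2 the lowest of its group, which overlapped Y665F. The log2 fold change of Y665H against Y665F was 1.04 ± 0.27 SE (adjusted p 0.0342, edgeR), and 6 of the 8 fits without 1 library lost that call. Male Bcat2 was at 113, 145, 123 and 101 CPM in Y665F, 145, 72.6, 195 and 192 CPM in WT and 155, 158, 130 and 163 CPM in Y665H males, with WT male 2 the lowest of all. Bcat1 stayed at 1.87 to 6.76 CPM in females and 5.70 to 13.5 CPM in males, with a log2 fold change of 0.27 ± 0.40 SE (adjusted p 0.675, edgeR). Exons of Bcat2 share 247 bases with the opposite-strand gene 0610005C13Rik, which had at most 3.14 CPM.

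In the BCKDH complex 3 of 4 subunit genes were called higher in Y665H females. Bckdha, the E1 alpha subunit that carries the regulatory phosphorylation, was at 109, 137, 97.1 and 134 CPM in Y665F, 147, 138, 158 and 150 CPM in WT and 258, 203, 198 and 179 CPM in Y665H females. The 4 Y665H females exceeded the 8 others, with a log2 fold change of 0.96 ± 0.18 SE (adjusted p 0.00891, edgeR) against Y665F. Males had 116, 138, 114 and 101 CPM in Y665F, 126, 91.6, 144 and 144 CPM in WT and 132, 160, 122 and 143 CPM in Y665H males, which overlapped across genotypes. Exons of Bckdha overlap those of the opposite-strand gene B3gnt8 over 488 bases, and B3gnt8 had 5.57 to 12.0 CPM, so a part of the Bckdha reads is uncertain.

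Dld, the E3 subunit that pyruvate and 2-oxoglutarate dehydrogenases also use, was at 175, 211, 162 and 217 CPM in Y665F, 187, 181, 268 and 177 CPM in WT and 304, 292, 324 and 388 CPM in Y665H females. Y665H females were all above the rest, with WT female 3 nearest, and the log2 fold change against Y665F was 0.92 ± 0.14 SE (adjusted p 0.00404, edgeR). Dld in males was at 156, 134, 135 and 105 CPM in Y665F, 193, 76.8, 131 and 141 CPM in WT and 222, 167, 183 and 144 CPM in Y665H males. Bckdhb, the E1 beta subunit, was at 43.7, 41.4, 31.6 and 42.9 CPM in Y665F, 45.7, 42.6, 42.9 and 45.9 CPM in WT and 60.6, 51.9, 50.8 and 44.6 CPM in Y665H females. The Y665H values began just above the highest Y665F value, and the log2 fold change was 0.53 ± 0.15 SE (adjusted p 0.047, edgeR), lost in 6 of 8 fits without 1 library. Male Bckdhb lay at 40.6, 46.2, 48.7 and 40.9 CPM in Y665F, 46, 27.4, 37.9 and 45.3 CPM in WT and 36.7, 44.9, 34.2 and 52.8 CPM in Y665H males, with no order by genotype. The E2 gene Dbt was at 36.6 to 69.6 CPM in Y665F and 60.2 to 80.4 CPM in Y665H females and missed the threshold (log2 fold change 0.65 ± 0.20 SE, adjusted p 0.0588, edgeR).

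The control enzymes behaved unequally. Bckdk, whose kinase shuts the complex off, lies at chr7:127904082-127910221 of mm10 and was at 42.6, 50, 43.1 and 43.8 CPM in Y665F, 56.7, 68.6, 54.7 and 58.7 CPM in WT and 79.4, 67.3, 56 and 63.4 CPM in Y665H females. All 4 Y665F females were below all WT and all Y665H females. Its log2 fold change was 0.72 ± 0.14 SE (adjusted p 0.0101, edgeR) for Y665H against Y665F. In males the levels were 46.4, 58.2, 45.8 and 58.1 CPM in Y665F, 50.7, 65.2, 65.1 and 54.8 CPM in WT and 55.6, 58.3, 52.4 and 65 CPM in Y665H males, which overlapped. Ppm1k, the phosphatase that turns the complex on, was at 21.3 to 30.7 CPM in Y665F, 17.0 to 24.5 CPM in WT and 22.0 to 35.0 CPM in Y665H females, with a log2 fold change of 0.34 ± 0.17 SE (adjusted p 0.198, edgeR) for Y665H against Y665F. Ppm1k was besides Slc7a5 the only member whose fold change in Y665F against WT females was above 0.

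All 4 genes of the leucine arm were called higher in Y665H than in Y665F females. Ivd, the isovaleryl-CoA dehydrogenase, was at 156, 169, 124 and 187 CPM in Y665F, 208, 181, 221 and 214 CPM in WT and 307, 233, 265 and 252 CPM in Y665H females. Y665H was highest, WT in the middle and Y665F lowest apart from 1 Y665F library above the lowest WT library, and the log2 fold change was 0.88 ± 0.16 SE (adjusted p 0.00916, edgeR). Male Ivd was at 156, 190, 171 and 140 CPM in Y665F, 175, 115, 195 and 187 CPM in WT and 187, 215, 178 and 217 CPM in Y665H males.

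Mccc1 (chr3:35959312-36000678 of mm10), the biotin-bearing subunit of methylcrotonyl-CoA carboxylase, was at 140, 146, 114 and 149 CPM in Y665F, 174, 161, 207 and 177 CPM in WT and 204, 233, 263 and 296 CPM in Y665H females. Here the 3 female genotypes came close to full separation: Y665F at most 149 CPM, WT from 161 CPM up, and 1 WT library inside the Y665H range. The log2 fold change of Y665H against Y665F was 0.99 ± 0.13 SE (adjusted p 0.00249, edgeR). With the thermogenic covariate Mccc1, Acadsb and Slc7a5 kept their call, but that covariate cannot be separated from genotype in these groups. In males Mccc1 was at 126, 122, 115 and 88.9 CPM in Y665F, 165, 65.8, 150 and 128 CPM in WT and 193, 138, 161 and 139 CPM in Y665H males. Its partner subunit Mccc2 was at 61.5, 68.3, 48.5 and 66.3 CPM in Y665F, 84.4, 77.8, 83.6 and 79.4 CPM in WT and 88.7, 88.1, 102 and 95.6 CPM in Y665H females. These 3 groups did not overlap at all in females, and the log2 fold change was 0.75 ± 0.12 SE (adjusted p 0.00589, edgeR). Mccc2 in males was at 62.5, 70.3, 63 and 53 CPM in Y665F, 80.1, 55.8, 86.2 and 72.4 CPM in WT and 82.8, 81.1, 73.8 and 81.4 CPM in Y665H males.

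Auh, the hydratase that follows the carboxylase, was at 58.9, 61.7, 47.9 and 58.9 CPM in Y665F, 61.4, 52.1, 63.5 and 54.8 CPM in WT and 70.1, 75.3, 78.3 and 73.1 CPM in Y665H females. Y665H lay above the other groups, which overlapped each other, with a log2 fold change of 0.53 ± 0.10 SE (adjusted p 0.00969, edgeR). Male levels of Auh were 43.2, 43.6, 35.3 and 32.6 CPM in Y665F, 45, 23.6, 36.3 and 37.4 CPM in WT and 54.1, 49.8, 47.6 and 38 CPM in Y665H males, all below the lowest Y665H female.

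Both genes of the isoleucine arm were called higher in Y665H females. Acadsb (chr7:131410601-131448944 of mm10), the dehydrogenase of short branched-chain acyl-CoA, had 218, 234, 172 and 250 CPM in Y665F, 226, 208, 275 and 220 CPM in WT and 339, 346, 459 and 433 CPM in Y665H females. The lowest Y665H female was above the highest WT and Y665F females, and the log2 fold change against Y665F was 0.99 ± 0.15 SE (adjusted p 0.00455, edgeR). Male Acadsb was at 144, 150, 140 and 124 CPM in Y665F, 186, 115, 193 and 184 CPM in WT and 228, 187, 208 and 240 CPM in Y665H males. Y665H and Y665F males did not overlap either. Hsd17b10, the X-linked dehydrogenase that acts after the hydration step, was at 50.9, 55.7, 49.5 and 62 CPM in Y665F, 57.5, 54.1, 61.2 and 54.8 CPM in WT and 118, 67.1, 83.1 and 82.6 CPM in Y665H females. Y665H female 1 was far above the other 3, all of which exceeded the other genotypes, and the log2 fold change was 0.84 ± 0.19 SE (adjusted p 0.0203, edgeR). Among males Hsd17b10 had 45.8, 54.6, 44.6 and 42.6 CPM in Y665F, 55.9, 42.9, 55.5 and 57.3 CPM in WT and 61.3, 57.9, 56.6 and 60.1 CPM in Y665H males.

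At the end of the ketone-forming branches, Acat1 and Oxct1 differed in how firmly they were called. Acat1, the mitochondrial acetoacetyl-CoA thiolase, was at 217, 221, 179 and 215 CPM in Y665F, 226, 194, 257 and 208 CPM in WT and 307, 312, 358 and 353 CPM in Y665H females. Y665H females were all above the rest, with a log2 fold change of 0.82 ± 0.10 SE (adjusted p 0.00239, edgeR). Males had 174, 156, 138 and 119 CPM in Y665F, 200, 104, 156 and 170 CPM in WT and 241, 204, 201 and 178 CPM in Y665H males. Oxct1 was at 334, 389, 346 and 361 CPM in Y665F, 411, 338, 432 and 377 CPM in WT and 338, 462, 593 and 469 CPM in Y665H females. Y665H female 1 was among the lowest of the females. The log2 fold change was 0.52 ± 0.15 SE (adjusted p 0.0439, edgeR), and 7 of 8 fits without 1 library lost that call. Oxct1 in males was at 306, 269, 236 and 177 CPM in Y665F, 323, 157, 218 and 204 CPM in WT and 394, 363, 402 and 296 CPM in Y665H males, where 3 of 4 Y665H libraries exceeded all others.

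In the valine arm, 3 of 4 genes were called. Acad8, the isobutyryl-CoA dehydrogenase, was at 46.9, 46.7, 51.1 and 47.8 CPM in Y665F, 45.4, 40.7, 50.4 and 42.5 CPM in WT and 54.5, 58.7, 56.5 and 56.8 CPM in Y665H females. The difference was small and regular, with a log2 fold change of 0.38 ± 0.05 SE (adjusted p 0.00298, edgeR). Male Acad8 was at 40.1, 39.2, 37.7 and 44.8 CPM in Y665F, 41.4, 60.4, 46.3 and 42.2 CPM in WT and 41.4, 37.7, 44.4 and 37.1 CPM in Y665H males, and the highest of these was WT male 2. Hibadh, the 3-hydroxyisobutyrate dehydrogenase, was at 135, 152, 115 and 159 CPM in Y665F, 145, 144, 167 and 150 CPM in WT and 197, 171, 210 and 195 CPM in Y665H females. Every Y665H female was above every other female (log2 fold change against Y665F 0.61 ± 0.13 SE, adjusted p 0.0159, edgeR). In males Hibadh was at 122, 129, 112 and 93.2 CPM in Y665F, 125, 93.6, 117 and 119 CPM in WT and 138, 143, 127 and 155 CPM in Y665H males. Aldh6a1 was at 241, 282, 192 and 320 CPM in Y665F, 315, 287, 370 and 313 CPM in WT and 426, 336, 477 and 457 CPM in Y665H females. Y665H libraries were above Y665F libraries and overlapped WT by 1 library, with a log2 fold change of 0.86 ± 0.19 SE (adjusted p 0.017, edgeR). Male Aldh6a1 was at 227, 299, 237 and 193 CPM in Y665F, 312, 312, 411 and 371 CPM in WT and 329, 325, 338 and 524 CPM in Y665H males, and Y665H male 4 stood out. Hibch, the hydrolase that releases 3-hydroxyisobutyrate, was at 76.3 to 151 CPM in Y665F and 123 to 190 CPM in Y665H females and was not called (log2 fold change 0.67 ± 0.22 SE, adjusted p 0.0681, edgeR).

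Abat was the exception among the mitochondrial enzymes. It encodes the transaminase of GABA and of beta-amino acids, which exchanges with the semialdehyde of the valine arm, and lies at chr16:8513429-8621568 of mm10. In females it was at 33.7, 40.2, 26.8 and 36.9 CPM in Y665F, 45.8, 28.8, 37.2 and 43.9 CPM in WT and 16.2, 19.1, 26.4 and 18.3 CPM in Y665H females. Y665H was the lowest group and did not overlap the others, with a log2 fold change of -0.64 ± 0.18 SE (adjusted p 0.0396, edgeR) against Y665F, and 6 of 8 fits without 1 library lost that call. In males the levels were 61.3, 56.9, 51.3 and 64.5 CPM in Y665F, 47.1, 52.6, 36.1 and 49.8 CPM in WT and 66.3, 89.6, 79.9 and 84.2 CPM in Y665H males. Here Y665H was the highest group, above every Y665F and WT library, and Y665F and WT males overlapped by 1 library.

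All 4 genes of the propionate arm were called higher in Y665H than in Y665F females. Pcca, the biotin-bearing subunit of propionyl-CoA carboxylase, was at 89.2, 103, 74.2 and 103 CPM in Y665F, 105, 110, 112 and 97.7 CPM in WT and 132, 150, 166 and 162 CPM in Y665H females. The Y665H females lay above all other females (log2 fold change against Y665F 0.86 ± 0.13 SE, adjusted p 0.00374, edgeR). Pcca in males was at 84.1, 83.6, 74.2 and 63 CPM in Y665F, 101, 48.1, 76 and 78.1 CPM in WT and 112, 101, 108 and 98.3 CPM in Y665H males. Its partner Pccb was at 196, 191, 154 and 191 CPM in Y665F, 209, 169, 223 and 198 CPM in WT and 306, 283, 295 and 283 CPM in Y665H females. Y665H values spanned only 283 to 306 CPM, clear of the other groups, and the log2 fold change was 0.82 ± 0.11 SE (adjusted p 0.00306, edgeR). Males had 180, 171, 162 and 135 CPM in Y665F, 209, 120, 180 and 164 CPM in WT and 249, 218, 221 and 189 CPM in Y665H males for Pccb.

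Further along that arm, the epimerase gene Mcee was at 16, 16.8, 14.4 and 15.9 CPM in Y665F, 16.8, 17.2, 16.9 and 14.9 CPM in WT and 17.6, 19.3, 20.6 and 19.1 CPM in Y665H females. The shift was modest, with no overlap between Y665H and the other genotypes and a log2 fold change of 0.42 ± 0.09 SE (adjusted p 0.0154, edgeR). Male Mcee was at 14.8, 15.8, 13 and 14.4 CPM in Y665F, 15.4, 13.5, 14.9 and 13.9 CPM in WT and 16.9, 15.4, 14.7 and 15.2 CPM in Y665H males. Mut, the vitamin B12-dependent mutase that forms succinyl-CoA, was at 130, 156, 115 and 164 CPM in Y665F, 158, 136, 200 and 147 CPM in WT and 206, 193, 217 and 258 CPM in Y665H females. WT female 3 reached into the Y665H range, and the log2 fold change of Y665H against Y665F was 0.77 ± 0.14 SE (adjusted p 0.00922, edgeR). Mut in males was at 120, 121, 103 and 86.7 CPM in Y665F, 139, 71.9, 108 and 107 CPM in WT and 155, 144, 148 and 132 CPM in Y665H males.

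Both genes that prepare the B12 cofactor for Mut were called. Mmab, the adenosyltransferase at chr5:114431034-114444060 of mm10, was at 27.5, 31.4, 24.1 and 29.1 CPM in Y665F, 33.9, 47.9, 34.5 and 36.7 CPM in WT and 45.2, 51.5, 48.1 and 42.9 CPM in Y665H females. Y665F was the lowest group, below every WT and Y665H female, and Y665H overlapped WT female 2. The log2 fold change was 0.89 ± 0.11 SE (adjusted p 0.00217, edgeR). Male levels were 27.6, 25.9, 22.5 and 22.7 CPM in Y665F, 25.1, 24.1, 26 and 22 CPM in WT and 25.5, 27.1, 30 and 25.5 CPM in Y665H males, within a narrow band. Mmaa, the chaperone that protects the mutase, was at 19.7, 21, 23.6 and 26.8 CPM in Y665F, 21.9, 18.3, 27.7 and 19.1 CPM in WT and 26.8, 28.1, 29.8 and 32.5 CPM in Y665H females. Y665H met the other groups at their upper ends, with a log2 fold change of 0.51 ± 0.10 SE (adjusted p 0.0114, edgeR). In males Mmaa was at 14.7, 14, 13.8 and 15.8 CPM in Y665F, 15.3, 11, 15 and 18 CPM in WT and 20.1, 16.5, 19.9 and 14 CPM in Y665H males.

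**Figure D4:**
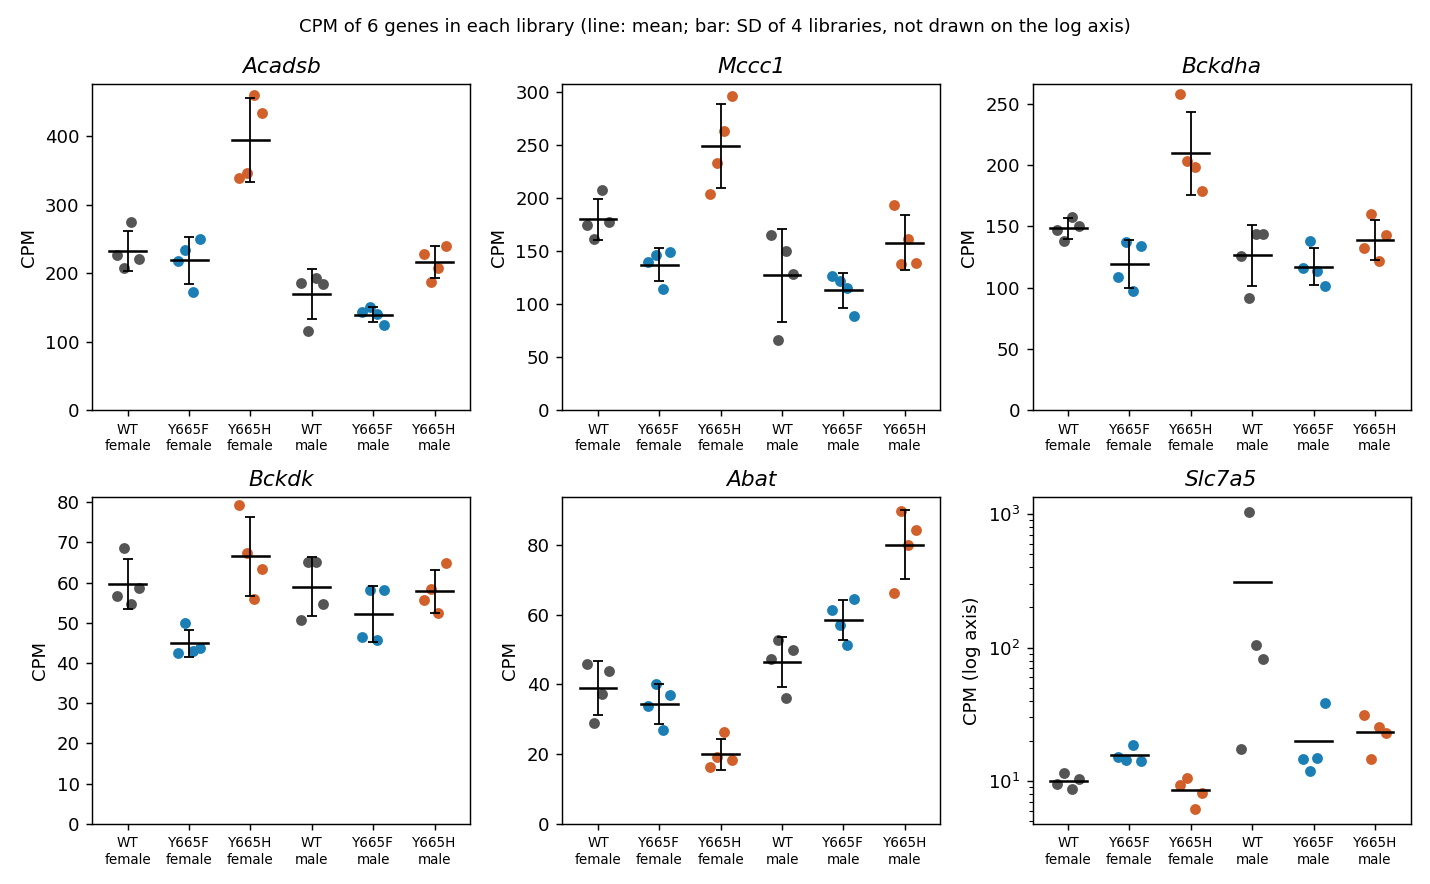
CPM in each library for 6 members, by group, with the mean as a line and the SD of 4 libraries as a bar (Slc7a5 on a log axis without bars). Acadsb, Mccc1 and Bckdha are highest in Y665H females, Bckdk is lowest in Y665F females, Abat is lowest in Y665H females and highest in Y665H males, and Slc7a5 reaches 1040 CPM in WT male 2.

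Promoters are shown because most members moved together in females and STAT5 proteins bind a short palindrome. RefSeq promoter entries (GRCm38.p6, from 250 bases before to 50 bases after the start) were matched by symbol for 25 of the 31 members. Slc7a5, Slc25a44, Dbt, Acat1, Abat and Mut had no entry in that table. The palindrome TTCNNNGAA, which reads the same on both strands, was found in 2 of the 25 members, 8% of them, against 9.27% of the 17224 counted symbols with an entry. It occurred in the promoters of Ivd (chr2:118861744-118862043, plus strand) and Pccb (chr9:101034835-101035134, minus strand), at positions -88 and -141 relative to the start, shown in capitals on the strand of the gene:
Ivd: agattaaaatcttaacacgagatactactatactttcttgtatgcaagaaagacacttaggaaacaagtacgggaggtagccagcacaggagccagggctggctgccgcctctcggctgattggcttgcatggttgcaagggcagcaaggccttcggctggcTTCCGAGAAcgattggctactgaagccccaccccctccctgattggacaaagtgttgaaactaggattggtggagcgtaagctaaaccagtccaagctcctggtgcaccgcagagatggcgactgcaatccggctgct
Pccb: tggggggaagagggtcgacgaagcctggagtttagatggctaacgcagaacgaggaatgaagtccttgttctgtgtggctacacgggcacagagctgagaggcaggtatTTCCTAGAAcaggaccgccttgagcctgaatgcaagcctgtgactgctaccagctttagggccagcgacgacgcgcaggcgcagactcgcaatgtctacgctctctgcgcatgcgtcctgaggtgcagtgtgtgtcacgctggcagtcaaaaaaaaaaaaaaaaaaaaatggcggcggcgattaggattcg
A match of letters is no evidence of binding, and no match in this window says nothing of sites elsewhere.

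In Y665H against WT females, 8 of 31 members were called, 7 higher and 1 lower, against 3.34% of all tested genes (1.53% higher and 1.8% lower). The members' median log2 fold change was 0.38, against 0.00 over all genes, and 27 values were above 0. The groups did not overlap for 14 members that were higher and 2 that were lower, against 6.45% and 6.81% of all genes. Acadsb had the largest rise, 0.77 ± 0.13 SE (adjusted p 0.023, edgeR). Dld followed with 0.70 ± 0.15 SE (adjusted p 0.0441, edgeR), and Acat1 with 0.60 ± 0.10 SE (adjusted p 0.0244, edgeR). Both subunits of propionyl-CoA carboxylase were called: Pccb at 0.56 ± 0.10 SE (adjusted p 0.0287, edgeR) and Pcca at 0.53 ± 0.08 SE (adjusted p 0.019, edgeR). Auh (0.37 ± 0.08 SE, adjusted p 0.0393, edgeR) and Acad8 (0.35 ± 0.08 SE, adjusted p 0.0437, edgeR) rose less. Abat fell, with a log2 fold change of -0.95 ± 0.17 SE (adjusted p 0.0283, edgeR). The remaining 23 values ran from -0.42 for Bcat1 to 0.65 for Hsd17b10, and Mccc1 came near the threshold at 0.48 ± 0.12 SE (adjusted p 0.056, edgeR). When single libraries were left out the members' median stayed between 0.34 and 0.48, while calls of members and of all genes moved together. No member was called without WT female 1 or WT female 4, the muscle-rich WT libraries, where 0.128% and 0.141% of all genes were called. Without Y665H female 1, 3 or 4 there was 1 called member (0.306%, 0.524% and 0.904% of all genes), without Y665H female 2 there were 4 (1.47%) and without WT female 3 there were 14 (8.12%). Without the 5 muscle-rich libraries, Y665H female 1 alone stood against 2 WT libraries, the members' median was 0.45, and 2.23% of all genes were called. None of the 8 members was called in that fit. The 3 members called there were Slc43a1, Bcat2 and Hsd17b10, named after their values were seen.

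Between Y665F and WT females, 2 of 31 members were called, both lower in Y665F, against 3.33% of all tested genes (2.31% higher and 1.02% lower). The median of the members was -0.26, against 0.02 over all genes, and 29 values were below 0. Bckdk fell (-0.54 ± 0.10 SE, adjusted p 0.0326, edgeR) and Mccc2 fell (-0.54 ± 0.12 SE, adjusted p 0.0491, edgeR). Close to the threshold were Mccc1 (-0.52 ± 0.12 SE, adjusted p 0.0569, edgeR) and Mmab (-0.58 ± 0.14 SE, adjusted p 0.0658, edgeR) with lower values and Slc7a5 (0.49 ± 0.12 SE, adjusted p 0.0696, edgeR) with a higher one. The groups did not overlap for 5 members that were lower, against 2.96% of all genes, and for Slc7a5, which was higher, against 19.9%. Under scaling by library totals, the scale of the CPM, 1 member was called higher and 1 lower, with a median of -0.13 against 0.15 over all genes. No member was called without WT female 1, 2 or 4 or without Y665F female 1 or 4, fits that called 0.424% to 0.597% of all genes. There was 1 called without WT female 3 (1.56% of all genes) or Y665F female 2 (1.14%), and there were 3 without Y665F female 3 (4.75%). None was called with the muscle or the thermogenic list as a covariate (medians -0.30 and -0.76), where no gene of any kind was called. In the same comparison 6 of 9 tested thermogenic markers were lower (median -1.36), 0 of 12 adipocyte markers were called (median -0.43) and 8 of 9 T and NK cell markers were higher.

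In males neither mutant gave a called member against WT. For Y665F, 0 of 31 members were called, against 0% of all tested genes, 3 had an unadjusted p under 0.05, and the median was 0.01. Slc7a5 had the smallest p, with a log2 fold change of -3.91 ± 1.21 SE (adjusted p 0.237, edgeR). The groups did not overlap for 0 members that were higher, against 5.59% of all genes, and for 1 that was lower, against 3.26%. The DESeq2 Wald test and the fit over all 24 libraries each called 1 member, where they called 6.38% and 13.2% of all genes. For Y665H, 0 of 31 were called, against 0% of all tested genes, 4 had an unadjusted p under 0.05, and the median was 0.24, against -0.05 over all genes. The groups did not overlap for 2 members that were higher, against 2.43% of all genes, and for 0 that were lower, against 1.18%. Abat had the smallest p, 0.80 ± 0.16 SE (adjusted p 0.402, edgeR), and 1 member was called by DESeq2 (with 0.402% of all genes) and 2 members over all libraries (with 1.18%). The WT males were the group with the widest range in epididymis markers. In WT male 2, Acadsb, Hibch, Dld, Mccc1, Pcca and Oxct1 were the lowest of the 24 libraries.

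Y665H and Y665F males, a comparison without WT libraries, gave 1 called member of 31, against 1.03% of all tested genes (0.125% higher and 0.901% lower). Acadsb was higher in Y665H, with a log2 fold change of 0.57 ± 0.10 SE (adjusted p 0.0465, edgeR). The members' median was 0.25, against -0.02, and 27 of 31 values were above 0. The groups did not overlap for 13 members, all higher in Y665H, against 6.29% of all genes, and 6.17% of all genes were lower without overlap. Among members that missed the threshold, Aldh6a1 had 0.60 ± 0.20 SE (adjusted p 0.17, edgeR), Oxct1 0.50 ± 0.19 SE (adjusted p 0.217, edgeR) and Abat 0.41 ± 0.12 SE (adjusted p 0.13, edgeR). Acadsb was called without Y665F male 4 and in none of the 7 other fits that left out 1 library. Thermogenic and muscle markers gave no call among 8 and 11 tested genes, with medians of -0.44 and -1.05, and the adipocyte markers none among 12, with a median of 0.25. With the adipocyte list as a covariate the members' median was 0.10 and no member was called.

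WT males were compared with WT females for the difference between the sexes. There 7 of 31 members were called, 1 higher and 6 lower in males, against 13.1% of all tested genes (7.15% higher and 5.95% lower). The median was -0.39, against 0.04 over all genes, and 27 values were below 0. The sexes did not overlap for 3 members that were higher in males, against 18.2% of all genes, and for 7 that were lower, against 7.01%. Oxct1 had the largest fall at -0.92 ± 0.23 SE (adjusted p 0.0382, edgeR). Auh (-0.85 ± 0.19 SE, adjusted p 0.0302, edgeR) and Mmab (-0.80 ± 0.15 SE, adjusted p 0.0182, edgeR) were also lower in males. Mmaa (-0.70 ± 0.19 SE, adjusted p 0.044, edgeR), Slc25a44 (-0.66 ± 0.12 SE, adjusted p 0.0167, edgeR) and Hibadh (-0.57 ± 0.12 SE, adjusted p 0.0267, edgeR) completed the lower group. Slc7a5 was higher, with a log2 fold change of 4.79 ± 1.19 SE (adjusted p 0.0367, edgeR). WT males ranged from 17.4 CPM in male 1 to 1040 CPM in male 2, all above the WT females at 8.76 to 11.6 CPM. The part of epididymis RNA in this was not tested. In the same comparison 7 of 9 thermogenic and 10 of 14 muscle markers were lower in males, and the adipocyte markers had a median of -0.72 with none called. With the adipocyte list as a covariate no member was called (1.82% of all genes) and the median was -0.10. Member calls moved with calls over all genes when libraries were left out, and the median stayed between -0.47 and -0.30. There were 0 called members without WT female 1, 3 or 4 (1.92%, 2.45% and 1.52% of all genes called) and 1 without WT female 2 (2.29%). There were 2 without WT male 3 (4.01%), 3 without WT male 4 (9.21%) and 14 without WT male 1 (30.7%).

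Whether the sexes differed in the response was tested by the interaction, the male minus the female log2 fold change. For Y665F against WT, 0 of 31 members passed, against 0% of all tested genes, with 6 members at an unadjusted p under 0.05 and the smallest p for Slc7a5 (-4.42 ± 1.21 SE, adjusted p 0.13, edgeR). DESeq2 called 2 members, where it called 6.91% of all genes. For Y665H against WT, 1 of 31 passed, against 0.0119% of all tested genes. That member was Abat, with log2 fold changes of 0.80 in males and -0.95 in females and an interaction of 1.75 ± 0.24 SE (adjusted p 0.0316, edgeR). Its adjusted p ran from 0.00302 to 0.129 when single libraries were left out, and the call was lost in 10 of these 16 fits.

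For Y665H against Y665F, a contrast free of WT libraries, 4 of 31 members differed between the sexes, against 0.868% of all tested genes (0.176% higher and 0.692% lower). Abat was lower in Y665H females and was at 66.3 to 89.6 against 51.3 to 64.5 CPM in males, an interaction of 1.04 ± 0.23 SE (adjusted p 0.0476, edgeR). Slc25a44 (-0.78 ± 0.16 SE, adjusted p 0.0379, edgeR), Mmab (-0.82 ± 0.17 SE, adjusted p 0.0393, edgeR) and Acad8 (-0.45 ± 0.09 SE, adjusted p 0.0342, edgeR) had interactions below 0. The median interaction of the members was -0.43, against 0.00 over all genes, and 28 of 31 values were below 0, Slc7a5, Slc3a2 and Abat being the others. With the adipocyte list as a covariate 10 members were called (3.78% of all genes) and without the filter on low counts none (0.386%). Leaving out a library gave between 0 and 4 called members, 4 of them without Y665F male 4 (1.12% of all genes), 2 higher and 2 lower. Acad8 was called in none of the 16 such fits. The call was lost in 14 of them for Slc25a44, 14 for Mmab and 13 for Abat. Thermogenic markers were higher in Y665H than in Y665F in females (7 of 10 called) and had no call in males (0 of 8). Muscle markers were likewise higher in females (11 of 15 called) without a call in males (0 of 11). The interaction called 3 of 10 thermogenic and 6 of 15 muscle markers, all below 0. The part of either signal in the members' interactions was not tested.

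**Figure D5:**
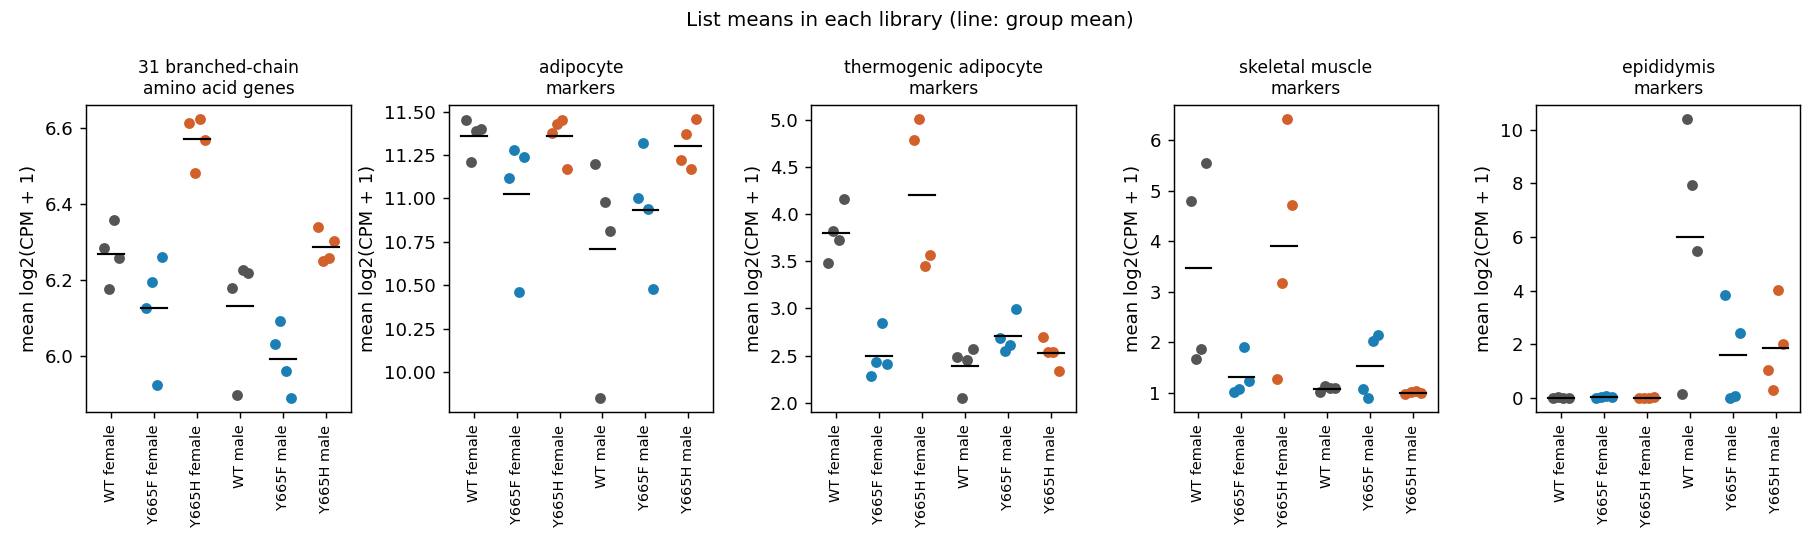
Mean log2(CPM + 1) of the 31 members and of 4 marker lists in each library, with the group mean as a line. The members are at 6.48 to 6.63 in Y665H and 5.92 to 6.26 in Y665F females. Thermogenic markers also separate these groups, while adipocyte and muscle markers overlap between them. Epididymis markers are at 0.14 to 10.41 in WT males, with WT male 1 the lowest of that group. They reach 3.84 in Y665F and 4.04 in Y665H males and at most 0.09 in females.

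Genes next to the pathway were read from lists drawn up beside the members. For Y665H against Y665F females, each count below stands against 8.77% of all tested genes higher and 8.59% lower. Among other enzymes of branched-chain amino acid breakdown, which fatty acid oxidation mostly shares, 10 of 19 tested were higher in Y665H than in Y665F females and 0 lower, with a median of 0.84. Ehhadh, the peroxisomal bifunctional enzyme, had 1.59 ± 0.16 SE (adjusted p 0.00148, edgeR), and Hadha, the alpha subunit of the trifunctional protein, 1.06 ± 0.10 SE (adjusted p 0.00148, edgeR). Against WT females, 4 of these 19 were higher in Y665H, against 1.53% of all genes, and 6 were lower in Y665F, against 1.02%. Hadha was in both groups with 0.60 ± 0.11 SE (adjusted p 0.0304, edgeR) and -0.45 ± 0.09 SE (adjusted p 0.0399, edgeR). Of 13 genes of the other 2-oxo acid dehydrogenases and their kinases and phosphatases, 10 were higher in Y665H than in Y665F females and Pdk3 was lower (median 0.86). Pyruvate dehydrogenase E1 genes were among them, with Pdha1 at 1.14 ± 0.18 SE (adjusted p 0.00468, edgeR) and Pdhb at 1.54 ± 0.29 SE (adjusted p 0.0103, edgeR). Of 13 genes for vitamin B12 and biotin handling, 5 were higher and Hlcs, which attaches biotin to the carboxylases, was lower (-0.43 ± 0.10 SE, adjusted p 0.0211, edgeR). None of 6 other transporters of branched-chain amino acids was called (median -0.23). Of 6 regulators, Ppara (0.88 ± 0.22 SE, adjusted p 0.0286, edgeR), Pparg (0.56 ± 0.14 SE, adjusted p 0.0292, edgeR) and the coactivator gene Ppargc1a (1.52 ± 0.38 SE, adjusted p 0.0291, edgeR) were higher, while Klf15, a known regulator of Bcat2, had 0.16 ± 0.27 SE (adjusted p 0.716, edgeR).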

How the data were processed

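Total RNA from adipose tissue was depleted of ribosomal RNA and sequenced as stranded paired-end libraries, per the labels' protocols. The authors deposited raw read counts per gene symbol, 1 file per library, which the submitters' processing notes tie to mm10 and to FastQC 0.11.9, Trimmomatic 0.36, STAR, SAMtools 1.9, Picard 2.9.2 and HTSeq 0.9.1. The annotation and the strand setting of the counting are not given in the sources used here, so members that share exon bases with an opposite-strand gene (Bcat2, Bckdha, Mccc1, Oxct1 and Mut) are uncertain to that extent. The 5 entries that name no gene held 24.8 to 39.7% of a library's counts and were left out.

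Counts were tested with edgeR 4.0.16 (limma 3.58.1, R 4.3.3): glmQLFit and glmQLFTest, TMM scaling, filterByExpr, and adjustment over all tested genes at 0.05. Each of 7 contrasts used the 8 libraries of its groups and each of 3 interactions used 16. CPM divide by the sum over gene symbols, so that a count of 0 allows at most 0.0726 to 0.143 CPM (3 counts, counting error only). Overlap of groups and order of group means were judged on these CPM, without TMM factors. Libraries were grouped by title. No pair of libraries within a group was alike within sampling noise (chi-square per degree of freedom at least 17.4). Alternatives were scaling, filter, DESeq2 1.42.0, a fit over all libraries, a replicate block, marker covariates and leaving out libraries. The thermogenic covariate and the fits without muscle-rich libraries (muscle list mean above 2.5) were added after seeing the data. The scripts were tested on simulated data. Named with full values are members called in any comparison and, where none was, the member with the smallest p. The members, marker lists and neighbouring gene lists were chosen with earlier results of these data known.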

Additional observations from a re-analysis of the deposited data

Results flagged for a closer look

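Among 186 sets of 4 libraries (31 members in 6 groups), 12 had a highest or lowest library far from the other 3 by Dixon's gap test at the 95% level, where chance gives about 1 in 20. WT male 2 accounted for 4 of them: Slc7a5 at 1040 CPM against 17.4 to 105 in the other WT males, Slc3a2 at 387 against 114 to 136 CPM, Acadsb at 115 against 184 to 193 CPM, and Hsd17b10 at 42.9 against 55.5 to 57.3 CPM. This library also had the highest epididymis marker mean, 10.41, and the lowest adipocyte marker mean, 9.85. Y665F female 3, whose adipocyte marker mean of 10.46 was the lowest among females, was low for Acat1 (179 against 215 to 221 CPM) and for Pccb (154 against 191 to 196 CPM). In the other groups, Slc7a5 was at 38.8 CPM in Y665F male 4 against 11.9 to 14.9 CPM. Slc25a44 was at 114 CPM in WT female 2 against 93.7 to 96.4 CPM, and Dld at 268 CPM in WT female 3 against 177 to 187 CPM. Dbt was at 60.2 CPM in Y665H female 2 against 78.5 to 80.4 CPM. Bckdk was at 50 CPM in Y665F female 2 against 42.6 to 43.8 CPM, and Aldh6a1 at 524 CPM in Y665H male 4 against 325 to 338 CPM.

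The interaction test in edgeR called 4 members as differing between the sexes. It called 0.0119% of all genes for Y665H against WT and 0.868% for Y665H against Y665F. For Abat the difference was 1.75 on the log2 scale for Y665H against WT and 1.04 for Y665H against Y665F. In the latter contrast the difference was -0.78 for Slc25a44, -0.82 for Mmab and -0.45 for Acad8, males minus females. The calls of this contrast were lost in most of the 16 fits without 1 library. They were lost in 13 for Abat, 14 for Slc25a44, 14 for Mmab and 16 for Acad8. For Y665H against WT, Abat lost its call in 10 of 16.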

How the results depend on the processing

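Under the alternatives the 51 named results gave 921 values, of which 0 changed direction. By the threshold, 571 stayed on their side, 344 lost and 6 gained a call. These results were picked from the main fit, and the alternatives reused all or most of its libraries. A change of direction was thus unlikely from the outset, and its absence does not measure stability. Counts of called members moved as follows, and the cause was not tested. Parentheses give the percent of all tested genes called by the same fit. Ranges over the fits that left out 1 library carry no percent, and calls over all genes moved in those fits too. For Y665F against WT females, with 2 called, edgeR's RLE scaling (3.18%), no filter (1.91%) and the adipocyte covariate (3.41%) gave 1, DESeq2 7 (12.9%), the muscle or thermogenic covariate and the fit without muscle-rich libraries 0 (0%), and leaving out 1 library 0 to 3. For Y665H against WT females, with 8, DESeq2 gave 20 (11.4%), the fit over all 24 libraries 3 (1.46%), of which 2 were among the 8, and leaving out 1 library 0 to 14. The fit without muscle-rich libraries, with 1 Y665H library, gave 3 (2.23%), of which 0 were among the 8. Y665F against WT males, with 0, gave 1 with DESeq2 (6.38%) and 1 over all libraries (13.2%), and 0 in each fit without 1 library. Y665H against WT males, with 0, gave 1 (0.402%) and 2 (1.18%), and likewise 0. Y665H against Y665F females, with 25, gave 16 with the muscle (10.4%) and 3 with the thermogenic covariate (0.536%), 0 without muscle-rich libraries (0%), and 18 to 24 without 1 library. Y665H against Y665F males, with 1, gave 4 with DESeq2 (6.74%), 0 without filter (0.535%) or with the adipocyte (1.42%) or epididymis covariate (0.463%), and 0 to 1 without 1 library. The 1 came without Y665F male 4, where 220 genes were called. WT males against WT females, with 7, gave 12 with DESeq2 (24.7%), 17 over all libraries (34.9%), 0 with the adipocyte covariate (1.82%), and 0 to 14 without 1 library. The sex difference of the Y665F effect, with 0, gave 2 with DESeq2 (6.91%) and 0 to 1. That of the Y665H effect, with 1, gave 2 with DESeq2 (4.09%), 2 over all libraries (1.17%), 0 with the adipocyte covariate (0%), and 0 to 3. Both of these ranges peaked without WT male 1, where 1686 and 1844 genes were called, against 0 and 2 in the main fits. The sex difference of Y665H against Y665F, with 4, gave 0 without filter (0.386%), 1 over all libraries (0.262%), 10 with the adipocyte covariate (3.78%), and 0 to 4.

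The labels do not say whether replicate numbers pair the libraries. Deviations of same-numbered libraries of different groups correlated at -0.37 to 0.71 (median 0.035), over 0.1 in 17 of 60 pairs. Libraries with different numbers were not compared in this way, so these values cannot decide whether the numbers mark a shared batch. With the replicate number as a block, called members were 2 for Y665F against WT females (4.32%), 0 for Y665H against WT females (0.207%), 16 for Y665H against Y665F females (10.2%), 0 for Y665H against Y665F males (0%), 2 for WT males against females (5.2%), 0 for the sex difference of the Y665H effect (0.00594%) and 3 for that of Y665H against Y665F (0.831%). The mean over libraries of the members' median level was 84.9 CPM, and 85.7 CPM with TMM factors.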
